A study of Homo sapiens with 7 samples.

Results

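The regions described here carried a peak of 5-hydroxymethylcytosine (5-hmC) in SK-N-BE(2) cells after 72 h in 1% oxygen and at no other sampled time. Peaks of the 6 lists on chromosomes 1 to 22 that overlapped by at least 1 bp were joined into 407675 regions. Members were chosen by the presence of a peak at 72 h and its absence from the other 5 lists, and 28882 of the regions (7.08%) met this rule. This established line was derived from a neuroblastoma with amplified MYCN and is labelled WT here, and each list comes from 1 library of captured 5-hmC fragments. Cells were kept in 1% oxygen (hypoxia) for 6, 12, 24, 48 or 72 h, or in 21% oxygen (normoxia, 0 h). The study asks how 5-hmC is redistributed in hypoxia.

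5-hmC is made from 5-methylcytosine by the TET dioxygenases, which need oxygen, iron and 2-oxoglutarate. It is both an intermediate of DNA demethylation and a stable mark, and in many cell types it is found in gene bodies and at enhancers. TET1 is one of these enzymes, and the title of the study names MYCN as its direct regulator. Capture methods such as the one used here report fragments that hold the mark, not the share of DNA molecules that carry it.

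On the autosomes the lists held 280942 (0 h) to 346595 (72 h) peaks, and the narrowest peak of a list measured 226 bp (0 h) to 242 bp (72 h). Read depth is unknown, because the lists give positions alone. With 1 library per time there is no replicate error and no test between times. Duration of hypoxia, time in culture, library depth and peak calling cannot be told apart. The intervals given below are 95% intervals and cover counting error only. Membership was set by presence and absence in these same lists, so all values of the members are descriptions. The label of the cell line could not be set against marker genes, since no gene positions of the build hg19 were used here.

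The 72 h list held the highest number of regions that no other list shared. The members made up 8.78% of the 329052 regions present at 72 h (95% Clopper-Pearson interval 8.68 to 8.87%). Regions seen at 6 h alone, the comparison for list-to-list noise, numbered 7035, or 2.63% of the 267245 regions present at 6 h (2.57 to 2.69%). The members were thus 4.11 times as numerous as the 6 h regions. In the other lists the regions seen alone numbered 7449 at 0 h (2.90% of that list's regions), 6441 at 12 h (2.41%), 8679 at 24 h (3.04%) and 13843 at 48 h (4.45%). Each member was a single peak. Together the members covered 8.55 Mb, or 4.51% of the length of the 72 h list, and the regions of 6 h alone covered 1.93 Mb, or 1.24% of the length of theirs.

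**Figure D1:**
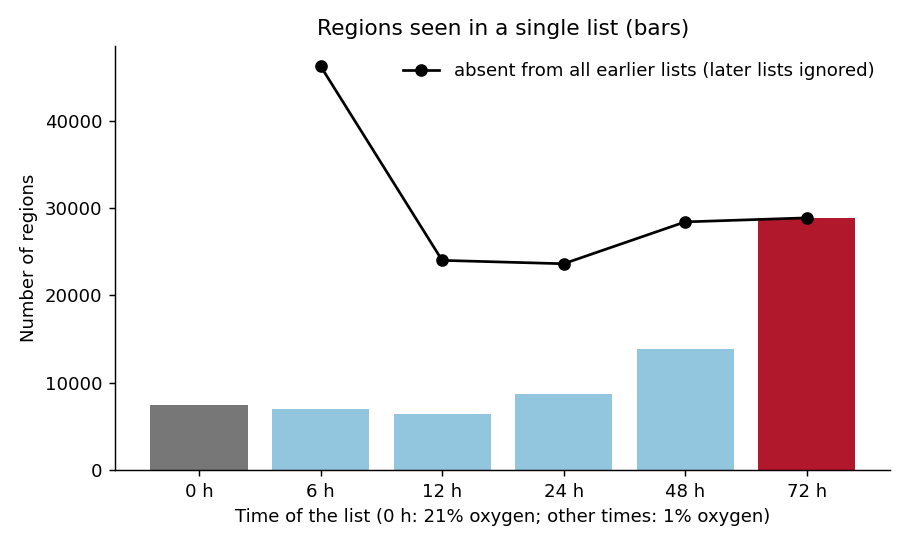
Number of regions seen in a single list (bars) and number absent from all earlier lists, whatever later lists hold (black points), against the time of the list. The bar at 72 h stands at 28882 and that at 6 h at 7035, while the point at 72 h stands at 28882 and that at 48 h at 28421.

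The 72 h list is the last of the series, so no later list could remove a region from the members, whereas the regions of 6 h alone were also absent from 4 later lists. When each list was judged against earlier lists alone, the 72 h count no longer stood apart. The 28882 members were then set beside 28421 regions present at 48 h and absent from 0 to 24 h, a ratio of 1.02. Regions absent from all earlier lists were 8.78% of the regions at 72 h and 9.15% of those at 48 h. At 6 h they numbered 46248 (17.3%), with 1 earlier list to be absent from, so against 6 h the ratio turned round, to 0.625. At 12 and 24 h they numbered 24020 and 23632, with 2 and 3 earlier lists. Of the 28421 regions that were new at 48 h, 14578 (51.3%) were found again at 72 h and 13843 were not. What share of the members a later time would have held is not known. At the other end of the series, the 0 h list has no earlier list, and 7449 of its regions were seen there alone.

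One neighbouring list decided how many regions counted as members. Without the 48 h list, 43915 regions would have been seen at 72 h alone, or 13.3% of the regions at that time. Leaving out the list of 0, 6, 12 or 24 h gave 31450 to 33020. Length of the lists also bore on the count. With the 280942 widest peaks of every list, 15280 regions were seen at 72 h alone (5.71%) and 9647 at 6 h alone (3.70%). The ratio was then 1.58. Under that choice 48 h alone held 9150 regions and 0 h alone 11730. The narrowest peak kept was 298 bp wide in the 72 h list, against 235 bp in the 6 h list, so this choice removes more narrow peaks at 72 h.

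The members were narrow, close to the smallest width their list allowed. Their median width was 278 bp, with quartiles of 251 and 318 bp, against a median of 257 bp and quartiles of 236 and 291 bp for the regions of 6 h alone. Peaks of the 72 h list in regions that all 6 lists shared had a median of 537 bp. The narrowest peak of the 72 h list measured 242 bp, and that of the 6 h list 235 bp. Measured from these floors, the median member was 36 bp wider than the narrowest peak, and the median region of 6 h alone 22 bp wider. A total of 4359 members (15.1%) had exactly the floor width, against 1709 (24.3%) of the 6 h regions. The median of the regions of 48 h alone lay 26 bp above their list's floor.

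Wider regions were more frequent among the members than among the regions of 6 h alone. Of the members, 1862 (6.45%) measured at least 400 bp, against 229 (3.26%) of the regions of 6 h alone. At least 500 bp were reached by 509 members (1.76%, interval 1.61 to 1.92%) and by 47 of the 6 h regions (0.668%, 0.491 to 0.887%). Judged against earlier lists alone, the order of 72 h and 6 h turned round. Of the peaks new at 6 h, 10.1% measured at least 400 bp, against 6.45% of the members. The share was 5.35% of those new at 12 h, 5.03% at 24 h and 5.20% at 48 h. When only peaks of at least 242 bp were kept in all lists, the medians were 280 bp at 72 h alone and 278 bp at 6 h alone. That cut also changed the groups, to 36406 regions at 72 h alone and 6109 at 6 h alone. It took narrow peaks from the 6 h list and none from the 72 h list. It therefore cannot tell how much of the gap in medians went with the floors.

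**Figure D2:**
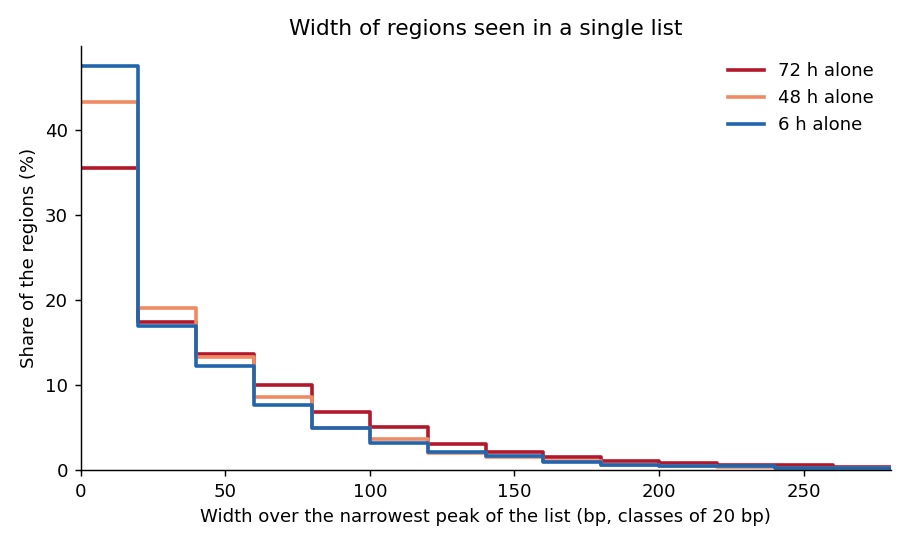
Share of the regions seen at 72, 48 or 6 h alone (%, y axis) by their width over the narrowest peak of their list (bp in classes of 20 bp, x axis). The members at 72 h lean least on the first class, and their median lies 36 bp above the floor, against 22 bp at 6 h.

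Among 72 h peaks, the share seen alone was lower the wider the peak. Of the 29924 peaks less than 20 bp wider than the floor, 10261 (34.3%) were members, against 12.3% of the corresponding peaks at 6 h. Of peaks 50 to 100 bp over the floor, 14.1% were members, against 3.31% at 6 h. At 200 to 400 bp over the floor the shares were 1.26% at 72 h and 0.203% at 6 h. Beyond 400 bp, 64 of 80835 peaks were members (0.0792%), against 4 of 66659 at 6 h. The share was higher at 72 h than at 6 h in each of the 6 width classes. No later list could lower the 72 h share, whereas 4 later lists could lower that of 6 h. At 48 h the share was 20.9% in the narrowest class and 0.340% at 200 to 400 bp over the floor. Beyond 400 bp it was 4 of 75919 peaks at 48 h.

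Measured to all other lists, the members lay farther from other peaks than the regions of 6 h alone did. The median distance, edge to edge, was 1500 bp (order-statistic interval 1467 to 1533 bp) for the members and 867 bp (829 to 903 bp) for the 6 h regions. Within 300 bp of a peak of another list lay 15.6% of the members (15.2 to 16.0%), against 23.4% of the 6 h regions (22.4 to 24.4%). Beyond 10000 bp lay 2466 members (8.54%), against 294 of the 6 h regions (4.18%). To the nearest normoxia peak, the median distance was 2623 bp for the members and 1466 bp for the 6 h regions. The regions of 48 h alone resembled the members more, with a median of 1353 bp and 8.66% beyond 10000 bp. Judged against earlier lists alone, the members did not lie farther away. Their median of 1500 bp stood beside 1800 bp for regions new at 6 h, 1500 bp at 12 h, 1651.5 bp at 24 h and 1773 bp at 48 h. These distances were taken to 1, 2, 3 and 4 lists instead of 5, and fewer lists leave longer gaps.

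**Figure D3:**
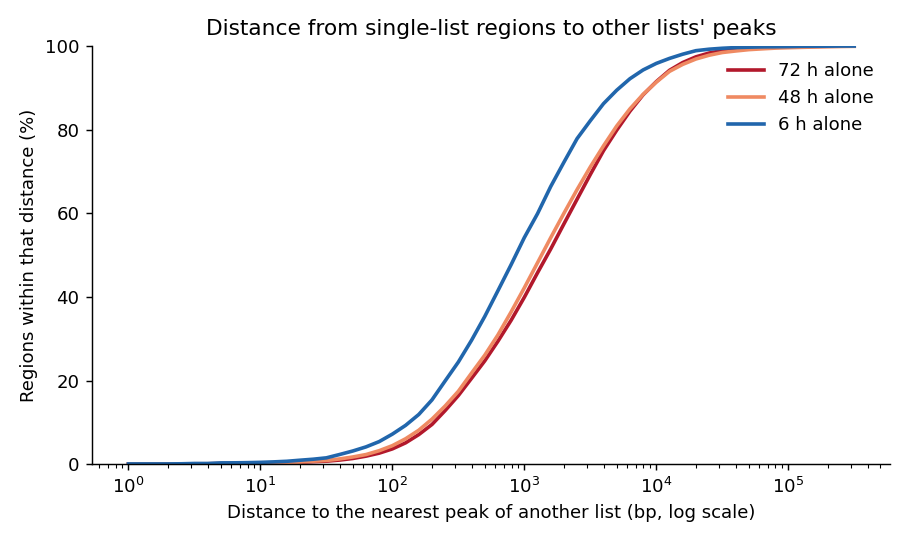
Share of the regions seen at 72, 48 or 6 h alone (%, y axis) that lie within a given distance of the nearest peak of another list (bp, log scale, x axis). The 6 h curve runs to the left, with a median of 867 bp, and the 72 and 48 h curves run close together, with medians of 1500 and 1353 bp.

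The gaps that held the members were longer, while the place within the gap was alike in both groups. The stretch free of other lists' peaks that held a member had a median length of 9174 bp, against 5273 bp for the regions of 6 h alone. The distance to the nearer side, as a fraction of the free length on both sides, had a median of 0.229 for the members and 0.226 for the 6 h regions. Of the members 54.2% lay closer to an edge of the gap than to its middle, against 54.9% of the 6 h regions. Median width hardly varied with distance. Members within 300 bp of another list's peak had a median width of 279.5 bp, and those beyond 10000 bp a median of 275 bp.

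Few regions lay at the edge of the overlap rule. A total of 76 members lay within 10 bp of a peak of another list, and 399 within 50 bp. On the other side of the rule, 77 peaks of the 72 h list overlapped another list's peak by at most 10 bp, and 332 by at most 50 bp. Median widths on both sides were alike, 281 bp just inside and 280 bp just outside.

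By place in the genome, the members leaned towards stretches where normoxic cells had few peaks. The 2700 bins of 1 Mb were put into 10 classes of equal number by their 0 h peaks. In the sparsest class 16.3% of the regions at 72 h were members, and in the densest class 5.53%, with a fall at each step between. The regions of 6 h alone made up 4.83% of the 6 h regions in the sparsest class, 3.05% in the next and 2.48 to 2.66% in the other 8. The 5 sparsest classes held 37.0% of the members (36.5 to 37.6%), against 23.4% of the 6 h regions (22.4 to 24.4%). Of all peaks of the 2 lists, 25.6% at 72 h and 22.3% at 6 h lay there. A decline with density was also seen at 48 h, where regions seen alone were 12.9% in the sparsest and 3.16% in the densest class.

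**Figure D4:**
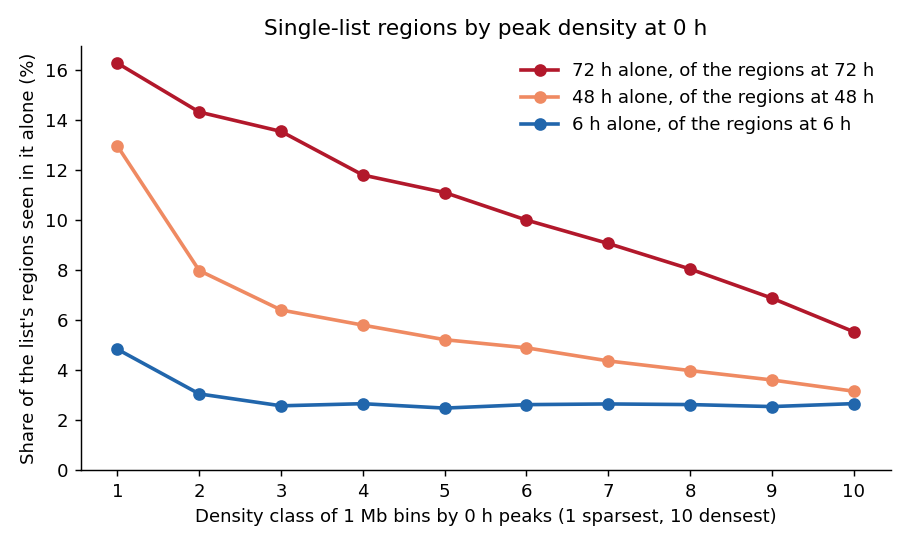
Share of a list's regions that were seen in it alone (%, y axis) for 72, 48 and 6 h, by density class of 1 Mb bins (x axis, from the fewest to the most 0 h peaks). The 72 h share falls from 16.3% to 5.53%, and the 6 h share stays between 2.48 and 2.66% from the third class on.

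In absolute number the members were spread almost evenly over the upper classes. A bin held on average 1.45 members in the sparsest class, 9.52 in the third, 12.4 in the fifth and 14.3 in the densest, while the densest class had 70267 peaks at 0 h and the third 12956. The regions of 6 h alone followed peak density more closely, with 1.23 per bin in the third class and 6.19 in the densest. The ratio of members to 6 h regions was therefore highest in the third class, at 7.74, and lowest in the densest, at 2.32. The ratio to regions of 48 h alone was lowest in the sparsest class, at 1.27, and lay between 1.82 and 2.30 in the others. Only 106 bins held no member, against 166 without a region of 48 h alone and 576 without a region of 6 h alone. On the finer scale of 50 kb to each side, a member had a median of 11 normoxia peaks around it. A region of 48 h alone had 12, a region of 6 h alone 17 and any region at 72 h 17. No normoxia peak lay within 50 kb of 481 members (1.67%), 313 regions of 48 h alone (2.26%) and 66 of 6 h alone (0.938%).

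The lean towards sparse bins did not set 72 h apart from 48 h. Of the 28421 regions at 48 h that were absent from 0 to 24 h, 38.2% lay in the 5 sparsest classes (37.7 to 38.8%), against 37.0% of the members. Among regions absent from all earlier lists, 28.1% of those first seen at 6 h lay there, with 28.9% at 12 h and 33.2% at 24 h. Their median peak width over the floor was 45 bp at 6 h, 32 bp at 12 h, 31 bp at 24 h, 35 bp at 48 h and 36 bp at 72 h. On these measures the members resembled the regions that had newly appeared at 48 h, of which 51.3% were found again at 72 h.

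Chromosomes differed in their share of members. It was highest on chromosome 18, where 531 members made up 11.2% of the 72 h regions (10.3 to 12.1%), and lowest on chromosome 22, with 441 members and 6.48% (5.91 to 7.09%). Chromosomes 13, 4 and 6 followed chromosome 18, with 10.4, 10.4 and 10.1%. Chromosomes 17, 19 and 20 stood just above chromosome 22, with 7.02, 7.22 and 7.54%. Chromosomes 17, 19 and 22 are known to be rich in genes. Normoxia peaks per 1 Mb bin averaged 145.9, 112.5 and 180.4 on these, in that order, against 51.4 on chromosome 18. Similar averages also went with unlike shares. Chromosomes 21, 13 and 14 averaged 103.1, 104.2 and 105.5 normoxia peaks per bin, with member shares of 9.90, 10.4 and 7.87%. A link of the share to genes or peak density by chromosome was not tested. Chromosome 18 also had the highest share at 48 h alone (7.12%, against 4.45% over all autosomes) and at 24 h alone (3.85%, against 3.04%). At 0 h alone it stood at 4.05%, against 2.90%. At 6 and 12 h alone it stood at 2.66 and 2.51%, near the 2.63 and 2.41% over all autosomes. The share of 6 h regions seen at 6 h alone ran differently, between 2.16% on chromosome 21 and 3.34% on chromosome 19. The ratio of members to regions of 6 h alone lay between 5.90 on chromosome 21 and 2.60 on chromosome 19.

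**Figure D5:**
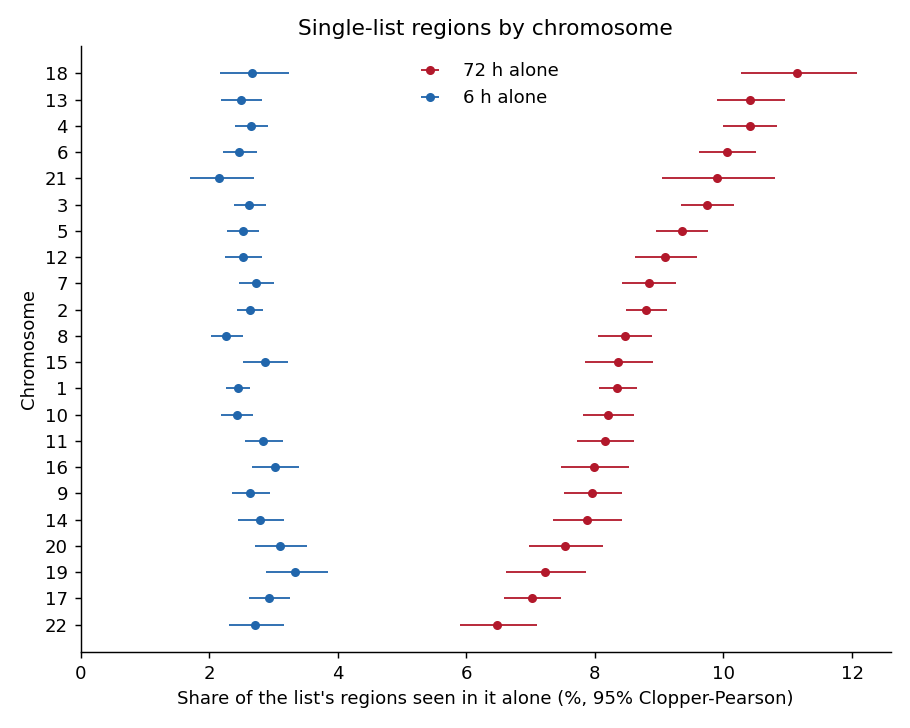
Share of a list's regions seen in it alone (%, x axis, with 95% Clopper-Pearson intervals) on each autosome (y axis, ordered by the 72 h share), for 72 h and 6 h. The 72 h share lies between 6.48 and 11.2%, above the 6 h share of 2.16 to 3.34% on every autosome.

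Selected chromosome arms and a stretch of chromosome 2 held members as follows. The long arm of chromosome 17, often gained in this tumour, held 703 members, or 6.84% of its 72 h regions, the third lowest of 39 arms. On the short arm of chromosome 11, 399 members made up 9.22%, against 87 regions (2.57%) at 6 h alone, near the shares of 8.78 and 2.63% over all autosomes. The arm had the highest share of 0 h regions seen at 0 h alone, with 208 regions (5.57%), against 2.90% over all autosomes. The stretch of chromosome 2 from 16 to 16.75 Mb held 3 members among 115 regions at 72 h (2.61%), against 3 among 129 at 6 h alone (2.33%) and 13 among 144 at 0 h alone (9.03%).

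The members' nearest neighbours outside their own group were held by the 72 h list about as often as any other region. For 23194 members (80.3%) the nearest such region was present at 72 h, close to the 79.2% of all regions other than members that the 72 h list held. Among the regions of 6 h alone, 66.5% had a nearest neighbour that was present at 6 h, against 64.9% of all other regions. The neighbours thus followed the make-up of each list. The nearest neighbour was present in all 6 lists for 13185 members (45.7%), against 49.3% of the 6 h regions. For 4715 members the nearest such region lay within 300 bp, and the 72 h list lacked it for 841 of them (17.8%, or 2.91% of all members). For 1673 of the 6 h regions it lay within 300 bp, and the 6 h list lacked it for 516 (30.8%, or 7.33% of all). The 72 h list lacked 20.8% of the other regions and the 6 h list 35.1%, so both shares lay slightly below those of their lists. For 1680 members (5.82%) the nearest neighbour was a region of 48 and 72 h only, and for 1281 (4.44%) it was one of 48 h alone.

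Members also lay next to each other. Of the members, 5340 (18.5%) had another member as the adjacent region on the chromosome, against 268 (3.81%) of the regions of 6 h alone. Of the regions of 48 h alone, 1216 (8.78%) had an adjacent one of their kind. Members were 7.08% of all regions, the regions of 48 h alone 3.40% and the 6 h regions 1.73%. How far number alone accounts for the adjacent pairs was not tested. There were 294 runs of 3 or more members with no region of another kind between them, against 40 such runs at 48 h and 2 at 6 h. The longest held 5 members each, on chromosome 2 from 32000406 to 32145651, chromosome 4 from 122127390 to 122148147, chromosome 11 from 21050793 to 21129947 and chromosome 21 from 23510954 to 23568236 (hg19).

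The 5 widest members lay 77 to 2022 bp from the nearest peak of another list, on both sides of the median of 1500 bp over all members. The widest measured 1356 bp, on chromosome 16 from 1010652 to 1012007, with peaks of other lists 77 bp to the right and 679 bp to the left. The next measured 1151 bp, on chromosome 7 from 27552431 to 27553581, at 862 bp from another list's peak. On chromosome 6, members of 938 bp (17675013 to 17675950) and 838 bp (3878741 to 3879578) lay 400 and 2022 bp away. The fifth, of 806 bp, lay on chromosome 1 from 28901400 to 28902205, at 1745 bp. These were the only 2 members of at least 1000 bp and the 3 widest below that size, and the widest region of 6 h alone measured 812 bp. No gene was joined to these positions.

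The most isolated members were short peaks far from anything in the other lists. The farthest lay on chromosome 2 from 115419981 to 115420255, 683.9 kb from the nearest peak of another list. Those next in distance lay on chromosome 14 from 42807114 to 42807355 (662.3 kb), chromosome 9 from 10449911 to 10450158 (588.3 kb), chromosome 11 from 55198588 to 55198829 (492.7 kb) and chromosome 5 from 12458193 to 12458473 (490.4 kb). They measured 242 to 281 bp, and 2 of the 5 had the floor width of 242 bp. None had a normoxia peak within 50 kb. Such distances also occurred at 6 h alone, where the farthest region lay 683.6 kb from any other list's peak.

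The bins of 1 Mb with most members were found from the third to the densest of the 10 classes. Chromosome 10 from 34 to 35 Mb held 33 members among 304 regions at 72 h (10.9%), against 1 region of 6 h alone. A second bin of that chromosome, from 57 to 58 Mb, held 30 members among 112 regions (26.8%) and no region of 6 h alone. Its peaks of all kinds numbered 113 at 72 h and 92 at 48 h, against 50 in normoxia. On chromosome 12 the bin from 19 to 20 Mb also held 30 members, 17.8% of its 169 regions. Chromosome 1 from 192 to 193 Mb and chromosome 4 from 182 to 183 Mb held 29 each, as did chromosome 12 from 79 to 80 Mb. In these named bins, regions of 48 h alone numbered 3 to 9 and regions of 6 h alone 0 to 4. Across all 2700 bins the median was 11 members, with quartiles of 6 and 15. Among the 2433 bins with at least 20 regions at 72 h, the share of members had a median of 9.05% and reached 39.5% on chromosome 12 from 78 to 79 Mb, where 15 of 38 regions were members. That bin was chosen after its values were seen.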

How the data were processed

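Of the 7 samples, the input was not analysed here, and the other 6 are 1 captured 5-hmC library per time. The deposited lists give chromosome, start and end of each peak, 1 list per sample. The submitters' processing notes list hg19 as build and BWA 0.7.17, MACS2 and HTSeq as tools, with no step assigned to any. How peaks were called (threshold, control) is not given in the sources used here.

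Peaks of chromosomes 1 to 22 were merged on overlap of at least 1 bp, and a region was present in a list when it held one of its peaks. Distances are the bases between edges. Bins of 1 Mb took regions and peaks by midpoint. Arms were parted at the longest stretch without peaks, and acrocentric chromosomes were taken as long arm. Shares have 95% Clopper-Pearson intervals, and medians exact order-statistic intervals. Named were the 5 widest and 5 most isolated members and the 5 bins with most members, with any tie. Members and comparisons were chosen with earlier results of these data known. Computations were checked on simulated lists. The gene and sequence tables at hand are for GRCh38.p14, so no gene or sequence was joined. The software was Python 3.11.15 with pandas 2.3.3, SciPy 1.17.1, Matplotlib 3.10.9 and NumPy 2.4.6.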

Additional observations from a re-analysis of the deposited data

Results flagged for a closer look

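A signal lay outside the autosomes, on chromosome X, above the level of the normoxia list. On chromosome X 630 regions were seen at 72 h alone (12.6% of 4985 regions at 72 h), against 161 at 0 h alone (4.46% of 3613 regions at 0 h). At 48 h alone there were 350 (7.37%) and at 6 h alone 121 (3.24%). The ratio of 72 h alone to 0 h alone was 3.91 on chromosome X and 3.88 on the autosomes, where the shares were 8.78% at 72 h and 2.90% at 0 h. The excess in number over normoxia was thus as large on the autosomes. Against 6, 12 and 24 h alone the ratio was higher on chromosome X, at 5.21, 5.58 and 3.60 against 4.11, 4.48 and 3.33. Against 48 h alone it was lower there, at 1.80 against 2.09. The cause was not tested.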

How the results depend on the processing

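Of 74 alternative values, 22 stayed within counting error, or within 1.5 times for the number of members, and 52 did not. No value has a sign to turn. The number of members was 14323 with peaks of at least 500 bp, 15280 with equal lists of the widest peaks and 31450 to 43915 with each list left out, the highest without the 48 h list. Their share of the 72 h regions was 8.27% with gaps of up to 300 bp joined and 11.1% with the common floor of 242 bp. It was 11.6% with peaks of at least 500 bp and 5.71% with equal lists. With overlap of at least 0.5 of both peaks, it was 10.7% of the 72 h peaks. That setting counts single peaks in place of merged regions, here and in the values below. With a list left out the share was 9.52 to 13.3% of the 72 h regions. In the same order, the ratio to 6 h alone was 4.48, 5.96, 3.84, 1.58 and 2.79, and 3.71 to 4.94 with a list left out. It had no value without the 6 h list. Against the regions alone at 0, 12, 24 or 48 h, the ratio was 3.88, 4.48, 3.33 and 2.09. It was 1.02 against 48 h regions absent from 0 to 24 h, a comparison chosen after seeing the data.

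The median width was 280 bp with the common floor, 554 bp with peaks of at least 500 bp, 340 bp with equal lists, 286 bp with the overlap of 0.5 and 278 to 287 bp with a list left out. The median distance was 2059.5 bp with gaps joined, 1597 bp with the common floor, 3589 bp with peaks of at least 500 bp, 1644.5 bp with equal lists, 833 bp with the overlap of 0.5, 2623 bp to the 0 h list, 1852 bp between midpoints and 1473 to 1753 bp with a list left out. The share in the 5 sparsest classes was 35.5% with chromosome X, 39.4% with gaps joined, 33.7% with the overlap of 0.5, 29.0% with peaks of at least 500 bp and 36.1 to 38.0% with a list left out. With equal lists the members lay at a median of 1644.5 bp with 37.6% in the sparse classes, against 1036 bp and 25.1% for the 6 h regions, so both differences kept their direction there. With peaks of at least 500 bp, a member may have a narrower peak in another list. With the overlap of 0.5, a counted peak that still overlapped another list's peak was given a distance of 0 bp. The causes of these shifts were not tested, except where the setting itself removes peaks or lists. Depth is unknown. No paired analysis was possible because there is 1 library per time.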

Other observations

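Near chromosome ends the members were somewhat less frequent than the regions of their list. Within 5 Mb of the first or last region of an autosome lay 2334 members (8.08%), against 939 regions of 6 h alone (13.3%), while 10.5% of all 72 h regions and 11.2% of all 6 h regions lay there. Within 1 Mb of the ends lay 1.60% of the members and 2.97% of the regions of 6 h alone. Of all regions, 2.01% at 72 h and 2.13% at 6 h lay there. The regions of 48 h alone were also below their list, with 9.95% against 10.7% within 5 Mb and 1.88% against 2.00% within 1 Mb.

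Across the 2433 bins of 1 Mb with at least 20 regions at 72 h, the share of members and the share of regions alone at 48 h had a Spearman's rho of 0.295. With the share alone at 6 h, rho was -0.072, and with that at 0 h, -0.067. For the number of regions seen alone per bin, in place of the share, rho was 0.319 with 48 h, 0.237 with 6 h and 0.191 with 0 h. These are descriptions across bins, which share the libraries and their peak density.

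Of the regions that were new at 48 h, the share found again at 72 h was 40.9% in the sparsest class of bins, 56.5% in the third and 44.6% in the densest.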
